A study of Mus musculus with 6 samples.

Results

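The genes described here are 32 markers of lung epithelium and of the mesothelium, the cell layer that covers the lung, in RNA from mouse pulmonary arterial smooth muscle cell (PASMC) cultures. They were taken by symbol through mouse Ensembl gene IDs (GENCODE M21, mm10), and all 32 were among the 21785 gene rows of the table. They comprise 11 alveolar, 4 airway, 11 general epithelial and 6 mesothelial genes. The cultures came from C57BL/6 mice: iron-laden agarose was perfused into the pulmonary artery, agarose was instilled through the trachea, the lobes were minced, and cells grew out of iron-bearing fragments held by a magnet. All samples then spent 48 h in medium without supplements. Of the samples, 3 were next given bone morphogenetic protein 9 (BMP9) at 1 ng/mL with BMP10 at 5 ng/mL for 6 h, and 3 control samples were given neither ligand. The labels name no altered allele in either group and do not say whether samples within a group came from separate animals or cultures, so every p-value measures only the spread between these samples, which may be technical.

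In the mouse lung, gas exchange takes place across flat alveolar type I cells, while cuboidal type II cells make surfactant, the lipid and protein film that lowers surface tension. Club cells secrete secretoglobins into the airways, and basal cells, which carry keratins 5 and 14, act as progenitors. Epithelial cells are held together by E-cadherin and claudins and are supported by keratins 7, 8, 18 and 19. Mesothelial cells share keratins with epithelium and also express mesothelin and the transcription factor WT1. BMP9 and BMP10 are circulating ligands that signal through SMAD proteins. Snail and Zeb proteins are repressors that bind E-boxes and lower epithelial genes such as that for E-cadherin.

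The 250 bases before the RefSeq start of 2 members are shown because Cldn1 was the only member that passed the test of the treatment without a replicate block, and Epcam, an epithelial adhesion gene, did not pass. Both are written 5′ to 3′ on the gene's strand (RefSeq, GRCm38.p6). Capitals mark the letters CAGGTG or CACCTG, the same Snail and Zeb type of E-box read from either strand, and GGCGCC, a motif of BMP-activated SMADs that reads the same on both strands. The motifs do not overlap each other in either window.
Cldn1, chr16:26371840-26372089, minus strand: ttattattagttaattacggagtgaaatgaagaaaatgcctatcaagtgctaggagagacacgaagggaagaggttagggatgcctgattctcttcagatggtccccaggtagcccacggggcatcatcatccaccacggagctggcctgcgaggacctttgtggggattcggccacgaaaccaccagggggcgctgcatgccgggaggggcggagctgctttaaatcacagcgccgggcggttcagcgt
Epcam, chr17:87635729-87635978, plus strand: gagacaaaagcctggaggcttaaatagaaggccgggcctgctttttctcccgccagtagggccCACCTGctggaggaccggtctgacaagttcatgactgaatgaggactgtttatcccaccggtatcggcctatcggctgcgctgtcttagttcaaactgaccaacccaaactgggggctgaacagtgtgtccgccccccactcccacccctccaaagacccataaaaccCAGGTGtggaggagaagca
The Cldn1 window held neither motif, while the Epcam window held the E-box letters at 2 places. Among the members only Muc1 had as many, so the windows shown are not typical. Upstream windows were available for 20 of the 32 members, and the E-box letters stood in those of 9, against 17.2% of all 32851 windows of this length. GGCGCC stood in those of 3 members (Bnc1, Krt18 and Slc34a2), against 9.59% of all windows. A match describes the letters only.

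All levels below are normalized read counts, obtained from reads per gene with 1 scaling factor for each library and given as whole numbers. A library's values summed to between 27295973 and 31903795. Spacing of the low values put the underlying depth at about 23.3, 28.0 and 54.4 M reads in stimulated replicates 1, 2 and 3 and about 26.4, 27.6 and 27.3 M in control replicates 1, 2 and 3, so low values carry least counting error in stimulated replicate 3. The 6 smooth muscle markers summed to between 79976 and 172402 in stimulated libraries, against 31740 to 49038 in control libraries, with none at 0. Of the 6, 4 rose (66.7%, against 8.61% of all genes tested). Markers of other cells were also present: the 8 macrophage markers summed to between 137919 and 204448 in stimulated and between 91779 and 157523 in control libraries, and the 10 endothelial markers to between 8852 and 39439 in stimulated and between 10841 and 39605 in control libraries. The 6 fibroblast markers summed to between 136959 and 274501 in stimulated and between 148004 and 225442 in control libraries. Except for the endothelial list, 1 gene made up most of each sum in every library. Acta2 gave 153164 of 172402 for smooth muscle and Col1a1 246018 of 274501 for fibroblasts in stimulated replicate 2. Lyz2 gave 179899 of 204448 for macrophages in stimulated replicate 1. These sums therefore mainly follow a single gene. No macrophage, endothelial or fibroblast marker was at 0 in any library. In such bulk RNA fewer cells of a type and less RNA per cell cannot be told apart.

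The epithelial and mesothelial genes were unevenly represented among the libraries. The 32 members summed to 6930, 48637 and 26394 in stimulated replicates 1, 2 and 3, against 15102, 52420 and 16002 in control replicates 1, 2 and 3. Replicate 2 was the highest library in both groups, and stimulated replicate 1 the lowest of all. Sftpc alone gave 16.1, 60.6 and 46.4% of the member sum in stimulated replicates 1, 2 and 3 and 5.47, 37.3 and 27.5% in control replicates 1, 2 and 3. The alveolar genes together gave 69.8, 80.8 and 68.5% in stimulated and 44.1, 58.9 and 56.2% in control libraries.

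**Figure D1:**
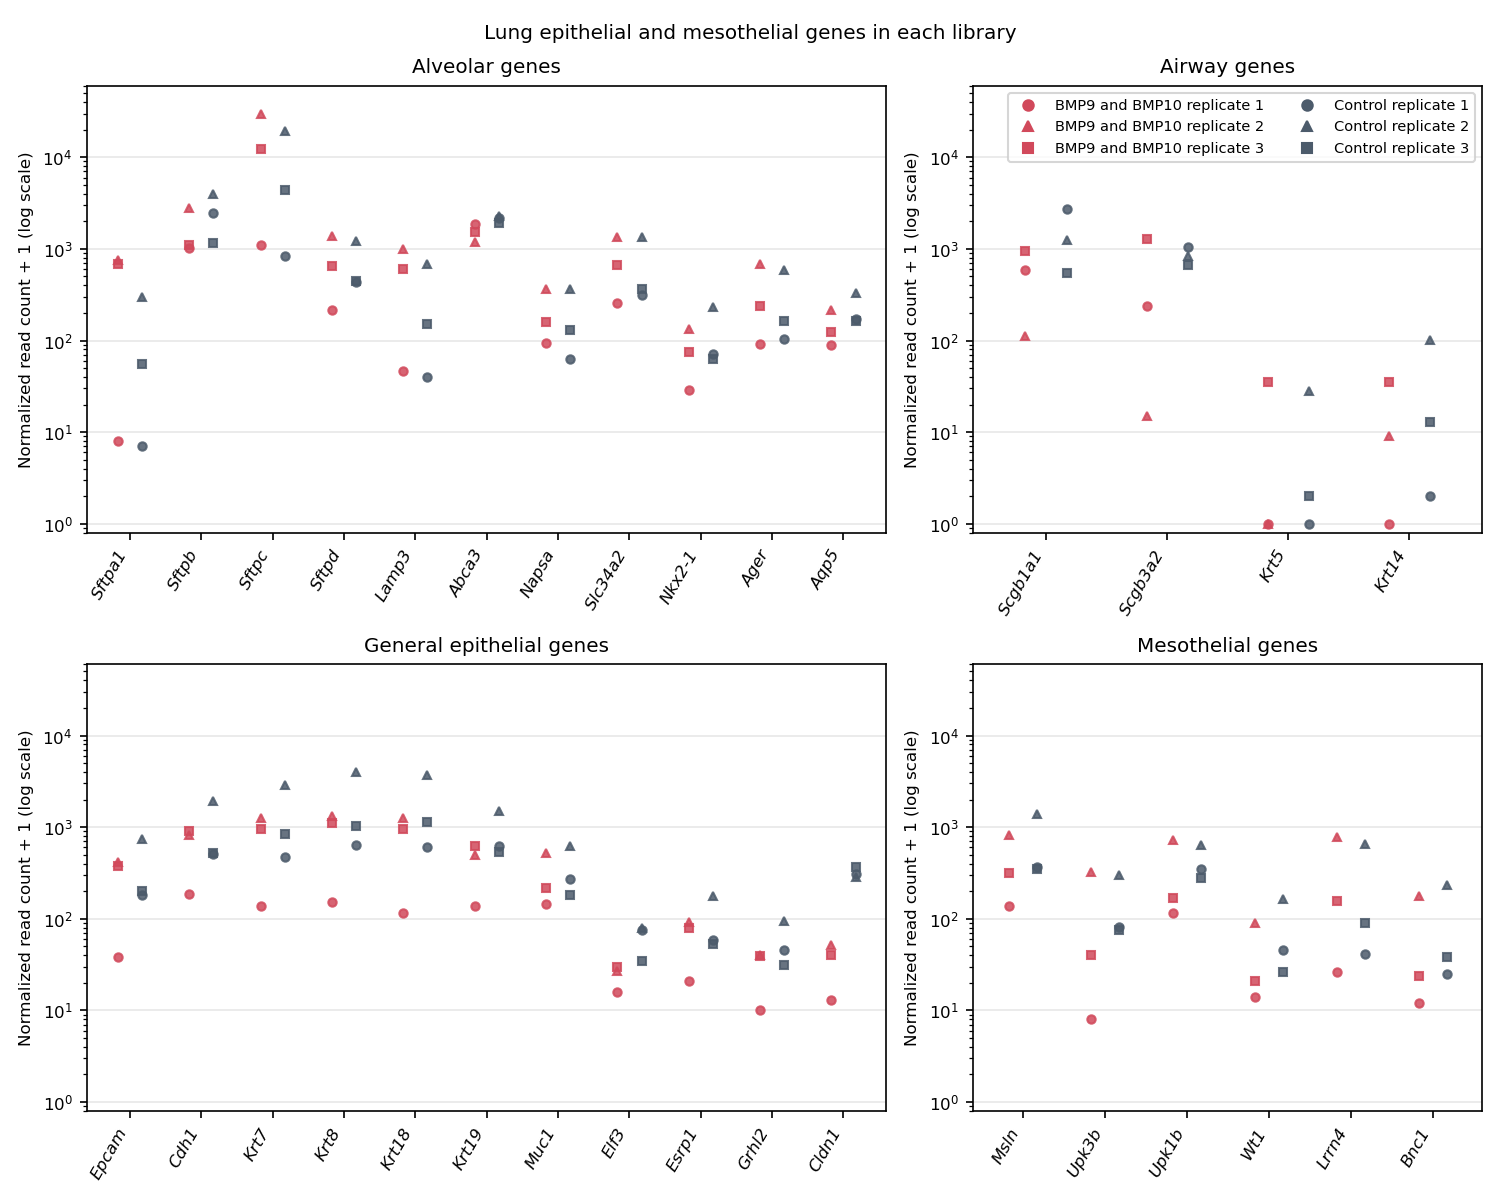
Normalized read count plus 1 (log scale) of each of the 32 genes, with stimulated libraries in red on the left of each gene, control libraries in grey on the right, and the marker shape giving the replicate number. The groups overlap for most genes; Cldn1 lies between 12 and 51 in stimulated libraries and between 282 and 366 in control libraries.

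Levels can be set side by side between genes only per length. Per kb of exon, Sftpc had the highest group mean, 13808 normalized counts in stimulated and 7984 in control libraries, followed by Scgb1a1 at 1146 in stimulated and 3139 in control libraries and Sftpb at 828 in stimulated and 1283 in control libraries. Krt18 had 537 per kb in stimulated and 1255 in control libraries, and its partner Krt8 had 443 in stimulated and 957 in control libraries. Krt5 and Grhl2 were the lowest in control libraries, at 4.25 and 6.50 per kb.

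The treatment was compared with control libraries by limma on log2(value + 1), where the added 1 makes changes of weakly expressed genes look smaller. Of the 32 members, 1 fell, none rose and 31 did not pass at an adjusted p under 0.05 (Benjamini-Hochberg over all 21743 genes tested). That is 3.12% of the members, against 13.4% of all genes tested, 8.61% higher and 4.75% lower. Over all genes 1873 rose and 1032 fell, against 1135 and 2265 with equal library totals and 1420 and 1352 with upper-quartile factors, while the members kept the single call. The median log2 change was -0.68 over the members and -0.03 over all genes. All 32 members had a mean of at least 1 and entered the test. Same-numbered libraries of the groups deviated together, so the comparison was also made with the replicate number as a block. The correlation of these deviations was 0.747, 0.741 and 0.218 for replicates 1, 2 and 3, but control replicate 3 correlated more with stimulated replicate 1 (0.287), so pair 3 is the least certain. Blocked limma called 7 members (21.9%), 1 higher (Sftpc) and 6 lower (Abca3, Aqp5, Krt18, Elf3, Cldn1 and Msln), against 26.8% of all genes, 14.9% higher and 12% lower. The blocked calls that were lower made up 18.8% of the members. With the block and equal library totals, 13 members were called (40.6%), against 32% of all genes, 12 of them lower (37.5%, against 22.6% of all genes) and 1 higher (3.12%, against 9.4%). That fit moved the median change of all genes to -0.20, and besides the 7 above it called Sftpb, Krt7, Krt8, Krt19, Wt1 and Bnc1, each lower. The share of members called thus lay below or above that of all genes depending on the fit. The standard errors of the members without the block ran from 0.17 to 2.02, with a median of 0.80, against 0.25 over all genes.

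Within pairs, the stimulated library was lower for 27 of 32 members in pair 1, for 23 in pair 2 and for 11 in pair 3, where the other 21 were higher. The stimulated library was lower in all 3 pairs for 9 members (28.1%), against 28.2% of all genes, and higher in all 3 pairs for 3 members (9.38%), against 27.2%. The groups did not overlap for 3 members, all lower after stimulation (9.38%, against 15.4% of all genes), and no member was higher in every stimulated library, against 17.8% of all genes.

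Levels also differed between replicates of the same group. Replicate 2 was the highest library of both groups for 23 of 32 members (71.9%), against 22.7% of all genes. It stood at a median of 2.33 times the mean of the other replicates in stimulated and 3.88 times in control libraries, against 0.992 and 1.00 over all genes. Replicate 2 was also the highest in both groups for all 10 endothelial markers, at a median of 3.63 times the others in stimulated and 3.63 times in control libraries, for 5 of 6 fibroblast markers (83.3%), at medians of 2.06 times in stimulated and 1.5 times in control libraries, and for 2 of 8 macrophage markers. The part of differing cell mixtures in the spread of the members was not tested.

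**Figure D2:**
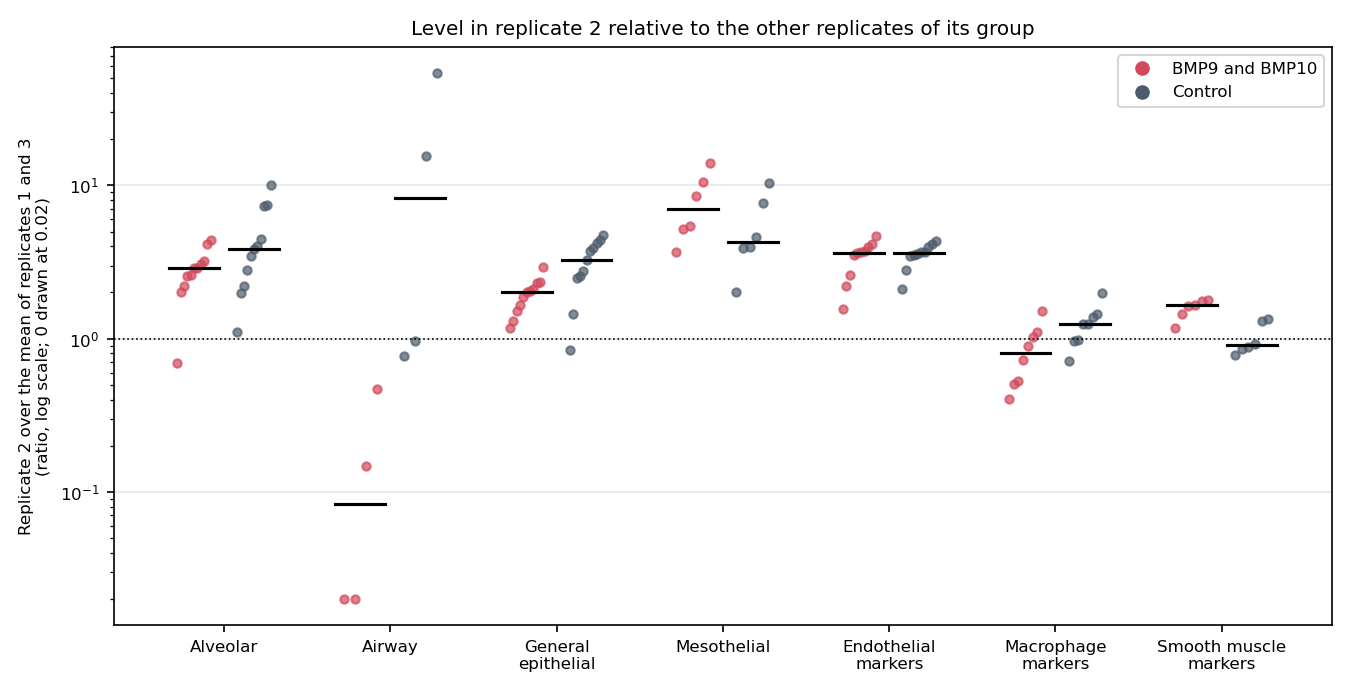
Level in replicate 2 divided by the mean of replicates 1 and 3 of the same group (log scale), a point per gene, black bars at the medians, stimulated libraries in red on the left and control libraries in grey on the right. Alveolar, general epithelial, mesothelial and endothelial genes lie mostly above 1 in both groups, while the 4 airway genes are at 0.471 or below in stimulated libraries.

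The alveolar genes did not share a direction: 5 changes were below 0 and 6 above, with a median of 0.19 that was -0.38 without stimulated replicate 2, -0.33 without control replicate 1, -0.08 without control replicate 3 and 0.86 without control replicate 2. Sftpc, which encodes the surfactant protein made by type II cells alone, had 1114, 29469 and 12248 in stimulated replicates 1, 2 and 3, against 826, 19538 and 4401 in control replicates 1, 2 and 3. It was higher in the stimulated library of each pair, by 0.43, 0.59 and 1.48 on the log2 scale, although the groups overlapped through the differences between replicates. The change was 0.83 ± 1.46 (SE; limma adjusted p = 0.756), and Sftpc passed with the block (0.83 ± 0.19, adjusted p = 0.0196). Without the block, its value turned to -0.33 without control replicate 1 and to -0.16 without stimulated replicate 2. In such fits the groups no longer hold the same replicate numbers, between which Sftpc differed widely. No fit with a library left out kept the block, so the blocked result was not tried in this way.

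Sftpa1, a collectin of surfactant, and Lamp3, a lamellar body protein, were likewise higher in the stimulated library of each pair. Sftpa1 had 7, 748 and 677 in stimulated replicates 1, 2 and 3, against 6, 301 and 54 in control replicates 1, 2 and 3, a range of 125-fold from lowest to highest library. Its change was 1.71 ± 2.02 (limma adjusted p = 0.635; 0.0724 with the block). Lamp3 had 46, 992 and 602 in stimulated and 39, 690 and 150 in control libraries (0.92 ± 1.37, limma adjusted p = 0.713; 0.0789 with the block). Neither gene passed, and the differences were small in pair 1 and largest in pair 3. In pair 3 the stimulated library was also higher for all 8 macrophage markers, which summed to 182337 in stimulated and 91779 in control replicate 3. In pair 2 it was lower for 7 of the 8, which summed to 137919 in stimulated and 152521 in control replicate 2. The part of macrophages in the differences of Sftpa1 and Lamp3 was not tested.

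Sftpb and Abca3 were lower in the stimulated library of each pair. Sftpb, a surfactant protein needed to form the surface film, had 1029, 2764 and 1097 in stimulated replicates 1, 2 and 3, against 2456, 3964 and 1153 in control replicates 1, 2 and 3 (-0.62 ± 0.53, limma adjusted p = 0.50; 0.0645 with the block, and 0.0189 with the block and equal totals). Abca3, the lipid transporter of lamellar bodies, had 1874, 1178 and 1538 in stimulated and 2192, 2274 and 1915 in control libraries. Of the 11 alveolar genes, 10 were highest in stimulated replicate 2. Abca3 was lowest there, at 0.691 times the mean of the other stimulated replicates. The cells that carried the Abca3 transcripts cannot be told from these data. The groups did not overlap for Abca3, and its values varied by 1.93-fold over all libraries, the narrowest range of any member. Its change was -0.50 ± 0.17 (limma adjusted p = 0.107), and it passed with the block (adjusted p = 0.0419) and without stimulated replicate 1 (-0.66, adjusted p = 0.0465). Of the exonic sequence of Abca3, 9.75% is shared with antisense exons, and for Napsa this share is 18.9%; if strand was not used in counting, reads of the partners cannot be told apart.

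Of the remaining type II genes, Sftpd, Napsa and Slc34a2 showed small changes with wide intervals. Sftpd, the other surfactant collectin, averaged 749 ± 594 in stimulated and 698 ± 454 in control libraries (SD, n = 3 each), with a change of -0.09 and a 95% confidence interval from -1.76 to 1.57. Napsa, an aspartic protease that processes surfactant proproteins, stood at 364 in replicate 2 of both groups, and its change was 0.30 ± 0.71. Slc34a2, a phosphate cotransporter of type II cells, averaged 759 ± 553 in stimulated and 679 ± 593 in control libraries (0.19 ± 0.74). These intervals also hold changes of more than 2-fold in either direction. Nkx2-1, the transcription factor of lung epithelium, had 28, 131 and 74 in stimulated replicates 1, 2 and 3, against 70, 229 and 62 in control replicates 1, 2 and 3 (-0.61 ± 0.68, limma adjusted p = 0.608).

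Type I markers were measured by Ager and Aqp5. Ager, which encodes a receptor of the type I cell membrane, had 91, 679 and 238 in stimulated and 102, 589 and 162 in control replicates 1, 2 and 3 (0.20 ± 0.85, limma adjusted p = 0.91). Aqp5, a water channel gene, had 89, 213 and 123 in stimulated and 169, 330 and 162 in control libraries. Aqp5 was lower in the stimulated library of each pair, with log2 differences of -0.92, -0.63 and -0.39 in pairs 1, 2 and 3. Its change was -0.65 ± 0.39 (limma adjusted p = 0.333), and it passed with the block (-0.65 ± 0.15, adjusted p = 0.0202).

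Ratios within a library do not depend on how libraries are scaled, and the following were chosen after their values were seen, so they are given without a test. Sftpc over Sftpb was 1.08, 10.7 and 11.2 in stimulated replicates 1, 2 and 3, against 0.336, 4.93 and 3.82 in control replicates 1, 2 and 3. Krt8 over Sftpc was 0.136, 0.0454 and 0.0907 in stimulated and 0.775, 0.202 and 0.234 in control libraries. The first ratio was higher and the second lower in the stimulated library of each pair, and for the second the groups did not overlap.

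**Figure D3:**
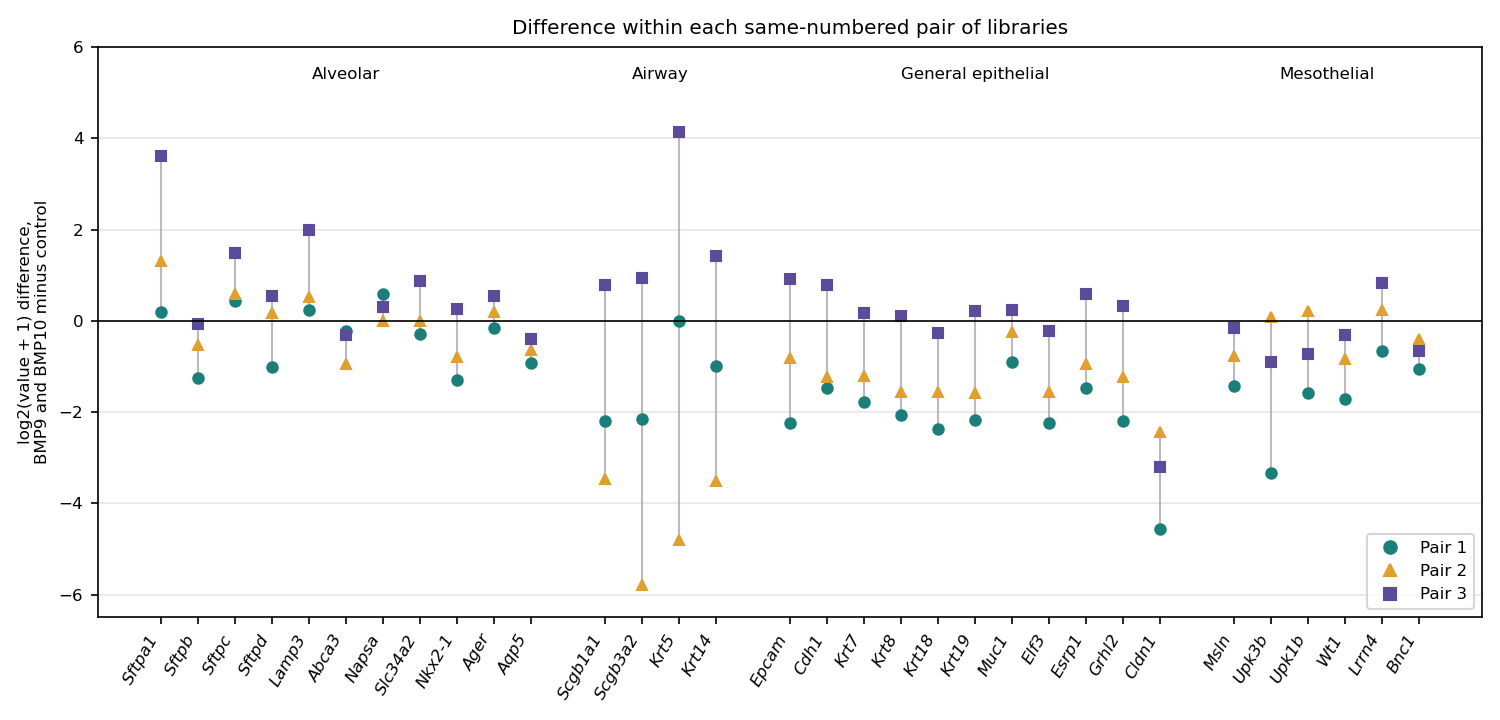
Difference of log2(value + 1), stimulated minus control, within same-numbered pairs of libraries for each gene, with a marker shape and colour per pair and a line spanning the 3 pairs. Most genes lie on both sides of 0; Cldn1 is at -4.56, -2.44 and -3.20, and in pair 3 all 4 airway genes lie above 0.

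No airway gene passed the test without or with the block. Their median change was -1.32, with all 4 below 0, and it was -2.22 without stimulated replicate 3. It was -0.77 without stimulated replicate 1, -0.66 without stimulated replicate 2, -0.60 without control replicate 2 and -0.20 without both replicate 2 libraries. Without stimulated replicate 1, control replicate 2 or both replicate 2 libraries, 2 genes lay below 0 and 2 above, so the shared direction was lost. Scgb1a1, the club cell secretory protein gene, had 589, 112 and 936 in stimulated replicates 1, 2 and 3, against 2701, 1242 and 540 in control replicates 1, 2 and 3. Scgb3a2, another secretoglobin gene, had 235, 14 and 1271 in stimulated and 1054, 832 and 665 in control libraries. Both were lowest in stimulated replicate 2, the library with the highest Sftpc, and both were higher in the stimulated library of pair 3. Their changes were -1.62 ± 0.87 and -2.34 ± 1.42, and neither passed (limma adjusted p = 0.272 for Scgb1a1 and 0.333 for Scgb3a2; 0.138 and 0.16 with the block).

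The basal cell keratins were at or near 0 in several libraries. Krt5 had 0, 0 and 34 in stimulated and 0, 27 and 1 in control replicates 1, 2 and 3, and Krt14 had 0, 8 and 34 in stimulated and 1, 101 and 12 in control libraries. The highest value of both genes was in stimulated replicate 3 for that group and in control replicate 2 for the other. The change was -0.23 ± 1.74 for Krt5 and -1.02 ± 1.70 for Krt14, and the interval for Krt5 ran from -4.34 to 3.89. Neither passed without or with the block.

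Of the other airway genes that were looked up, 13 of 14 were in the table, and none rose or fell. Their median change was -1.61, with all 13 below 0, but 9 were higher in the stimulated library of pair 3. Cyp2f2, the one with the highest mean normalized count before any correction for length and a club cell cytochrome P450 gene, averaged 398 ± 191 in stimulated and 816 ± 481 in control libraries (-0.87 ± 0.59, limma adjusted p = 0.389). With the block, 2 of the 13 fell (15.4%, against 12% of all genes). Of 14 other alveolar genes, none passed without the block, and 2 rose and 2 fell with it. That is 14.3% each, against 14.9% of all genes higher and 12% lower. Pdpn, the one of these with the highest mean normalized count and a type I cell glycoprotein gene that other lung cells also express, averaged 6667 ± 1716 in stimulated and 7652 ± 1671 in control libraries (-0.21 ± 0.24, limma adjusted p = 0.617).

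Among the general epithelial genes, Cldn1 fell and the other 10 did not pass. Cldn1, which encodes the tight junction protein claudin-1, lies on chromosome 16 in mm10 (chr16:26356642-26371841, minus strand). It had 12, 51 and 39 in stimulated replicates 1, 2 and 3, against 305, 282 and 366 in control replicates 1, 2 and 3. Every stimulated library was below every control library, a separation in this direction that 15.4% of all genes tested also showed. The means were 34.0 ± 20.0 in stimulated and 318 ± 43.4 in control libraries (SD, n = 3 each), and the change was -3.40 ± 0.49 (limma adjusted p = 0.00708; 0.00135 with the block). It passed under each alternative run, with values from -3.88 to -2.80.

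Cldn1 also differed from the other general epithelial genes among control libraries, where it was lowest in replicate 2, at 0.841 times the mean of the others. The other 10 were highest in control replicate 2, at 1.44 to 4.73 times the others. In stimulated libraries Cldn1 did not stand apart in this way, and all 11 genes were lowest in replicate 1. Cldn1 was highest in stimulated replicate 2, as were 7 of the other 10. It stood there at 2 times the mean of the other stimulated replicates, against a median of 1.94 times for those 10. Relative to Cdh1 in the same library, Cldn1 stood at 0.0649, 0.0620 and 0.0430 in stimulated replicates 1, 2 and 3, against 0.595, 0.145 and 0.696 in control replicates 1, 2 and 3. Relative to Epcam, it stood at 0.324, 0.122 and 0.104 in stimulated and 1.70, 0.381 and 1.84 in control replicates 1, 2 and 3. Both ratios were lower in every stimulated than in every control library, narrowly so for Epcam. The fall of Cldn1 itself lowers such ratios, and they were not tested. The cells that carried the Cldn1 transcripts cannot be told from these data.

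The keratins of simple epithelia were low in stimulated replicate 1 and high in control replicate 2. Krt8 had 152, 1339 and 1111 in stimulated replicates 1, 2 and 3, against 640, 3950 and 1031 in control replicates 1, 2 and 3 (-1.17 ± 0.96, limma adjusted p = 0.481; 0.0584 with the block, and 0.0282 with the block and equal totals). Krt18, which forms filaments with keratin 8, had 114, 1247 and 954 in stimulated and 599, 3665 and 1145 in control libraries. It was lower in the stimulated library of each pair, with log2 differences of -2.38, -1.55 and -0.26 in pairs 1, 2 and 3. The change of Krt18 was -1.40 ± 1.01 (adjusted p = 0.415 by limma, and 0.0275 with the block). Krt7 averaged 779.7 ± 578 in stimulated and 1403 ± 1309 in control libraries, and Krt19 averaged 422 ± 254 in stimulated and 888 ± 532 in control libraries. Neither passed without or with the block alone, but both did so with the block and equal totals (limma adjusted p = 0.0371 for Krt7, at -1.11, and 0.0385 for Krt19, at -1.35).

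Adhesion and surface genes had smaller changes that turned with a single library. Epcam had 37, 419 and 375 in stimulated and 179, 741 and 199 in control replicates 1, 2 and 3 (-0.72 ± 0.99, limma adjusted p = 0.688), and its value was 0.41 without stimulated replicate 1. Cdh1, the E-cadherin gene, had 185, 823 and 906 in stimulated and 513, 1947 and 526 in control libraries (-0.64 ± 0.74, limma adjusted p = 0.625), and its value was 0.10 without stimulated replicate 1. Muc1, a membrane mucin gene, averaged 295 ± 203 in stimulated and 359.7 ± 235 in control libraries (-0.30 ± 0.58). In pair 3 all these genes were higher in the stimulated library, against lower values in pairs 1 and 2.

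Regulators of the epithelial state were present at low levels. Elf3, an ETS transcription factor gene, had 15, 26 and 29 in stimulated replicates 1, 2 and 3, against 74, 78 and 34 in control replicates 1, 2 and 3, and the groups did not overlap. Its change was -1.33 ± 0.41 (limma adjusted p = 0.0795), and it passed narrowly with the block (adjusted p = 0.0491). Grhl2, a grainyhead-like transcription factor gene, averaged 28.7 ± 17.0 in stimulated and 56.0 ± 32.9 in control libraries (-1.03 ± 0.65), and Esrp1, an epithelial splicing regulator gene, averaged 63.0 ± 37.8 in stimulated and 95.3 ± 70.8 in control libraries (-0.61 ± 0.69). Neither passed without or with the block. The median change of the 11 general epithelial genes was -1.03 with all below 0, and it was -0.17 with 6 below 0 when stimulated replicate 1 was left out, and -0.41 with 10 below 0 when control replicate 2 was left out.

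**Figure D4:**
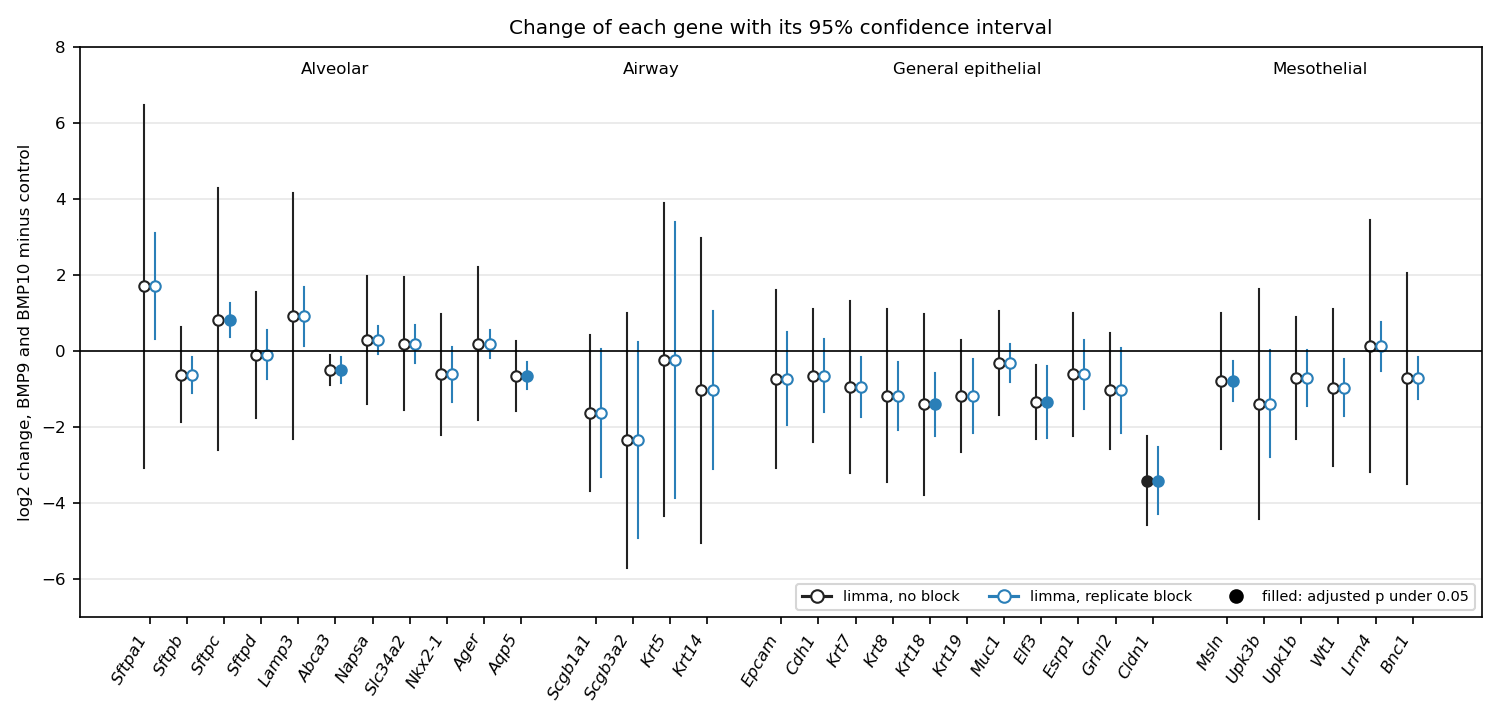
Change of each gene, stimulated minus control on the log2(value + 1) scale, with 95% confidence intervals, from limma without a block (black) and with the replicate number as a block (blue); filled circles mark an adjusted p under 0.05. Without the block the filled circle is that of Cldn1 at -3.40, and the blocked intervals are narrower for most genes.

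Of 30 other general epithelial genes, 29 were in the table, 1 rose (3.45%, against 8.61% of all genes tested) and none fell. The rise was that of Grhl1, a paralogue of Grhl2, which had 53, 47 and 53 in stimulated replicates 1, 2 and 3, against 23, 31 and 18 in control replicates 1, 2 and 3. Its groups did not overlap, and its change was 1.09 ± 0.27 (limma adjusted p = 0.0424; 0.0286 with the block). The call was lost with equal library totals (adjusted p = 0.0687), with upper-quartile factors (0.0549) and without any of 5 libraries, all but control replicate 2 (0.0797 to 0.153). With the block, 3 of the 29 rose and 3 fell (10.3% each, against 14.9% of all genes higher and 12% lower).

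No mesothelial gene passed without a block. All 6 were highest in replicate 2 of both groups, at 3.65 to 14.0 times the other replicates in stimulated and 2.02 to 10.3 times in control libraries. Msln, the mesothelin gene, had 136, 821 and 314 in stimulated replicates 1, 2 and 3, against 367, 1405 and 350 in control replicates 1, 2 and 3. It was lower in the stimulated library of each pair, with a change of -0.79 ± 0.76 (limma adjusted p = 0.551), and it passed with the block (-0.79 ± 0.22, adjusted p = 0.0409). Wt1, a transcription factor of mesothelium, had 13, 90 and 20 in stimulated and 45, 162 and 25 in control libraries, and Bnc1, a zinc finger gene, had 11, 178 and 23 in stimulated and 24, 235 and 37 in control libraries. Both were also lower in the stimulated library of each pair, and neither passed without or with the block alone (adjusted p = 0.0655 for Wt1 and 0.0644 for Bnc1, limma with the block). With the block and equal totals both passed (limma adjusted p = 0.0311 for Wt1 and 0.0263 for Bnc1).

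The uroplakin genes and Lrrn4 differed between pairs. Upk3b, a membrane protein gene that marks mesothelium in the lung, had 7, 322 and 39 in stimulated and 80, 303 and 74 in control replicates 1, 2 and 3 (-1.39 ± 1.28, limma adjusted p = 0.532). Upk1b, a tetraspanin gene, had 114, 728 and 168 in stimulated and 346, 630 and 279 in control libraries (-0.70 ± 0.67, limma adjusted p = 0.549). For both, the stimulated library was lower in pairs 1 and 3 and slightly higher in pair 2. Lrrn4, a leucine-rich repeat protein gene, had 25, 773 and 157 in stimulated and 40, 660 and 88 in control libraries, and its interval ran from -3.18 to 3.44. The median change of the 6 genes was -0.75, and it was -0.13 without stimulated replicate 1, -0.17 without control replicate 2 and -1.63 without stimulated replicate 2.

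Of 7 other mesothelial genes, none rose and 1 fell (14.3%, against 4.75% of all genes tested). This was Cldn15, a claudin gene of mesothelium, which had 15, 22 and 13 in stimulated replicates 1, 2 and 3, against 33, 67 and 41 in control replicates 1, 2 and 3. The groups did not overlap, and the change was -1.41 ± 0.36 (limma adjusted p = 0.0444; 0.0103 with the block). The call was lost without any single library (limma adjusted p = 0.0514 to 0.158), without both replicate 2 libraries (0.0582) and with limma-voom (0.0516). With the block, 1 of the 7 rose and 1 fell (14.3% each, against 14.9% of all genes higher and 12% lower). In control libraries, 6 of the 7 were highest in replicate 2 (against 38.8% of all genes). In stimulated libraries 5 of the 7 were (against 36.9%).

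Of 7 genes for Snail, Zeb and Twist repressors, 1 rose (14.3%, against 8.61% of all genes tested) and 2 fell (28.6%, against 4.75%). Snai1 had 2002, 3266 and 2339 in stimulated replicates 1, 2 and 3, against 611, 881 and 636 in control replicates 1, 2 and 3 (1.83 ± 0.21, limma adjusted p = 0.00346), and it passed under each alternative run. Snai2 had 377, 463 and 561 in stimulated and 917, 823 and 1050 in control libraries (-1.0 ± 0.17, limma adjusted p = 0.0116), a call lost narrowly without control replicate 1 (0.0507), control replicate 3 (0.0552) or both replicate 2 libraries (0.0506). Zeb2 had 6204, 6497 and 6017 in stimulated and 7642, 7621 and 7842 in control libraries (-0.30 ± 0.07, limma adjusted p = 0.0303). The call for Zeb2 was lost without any of 5 libraries, all but stimulated replicate 2 (0.0517 to 0.124). With the block, 1 of the 7 rose (14.3%, against 14.9% of all genes) and 4 fell (57.1%, against 12%). The genes that passed thus moved in both directions, and of the 7 only Snai1 was highest in replicate 2 of both groups.

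**Figure D5:**
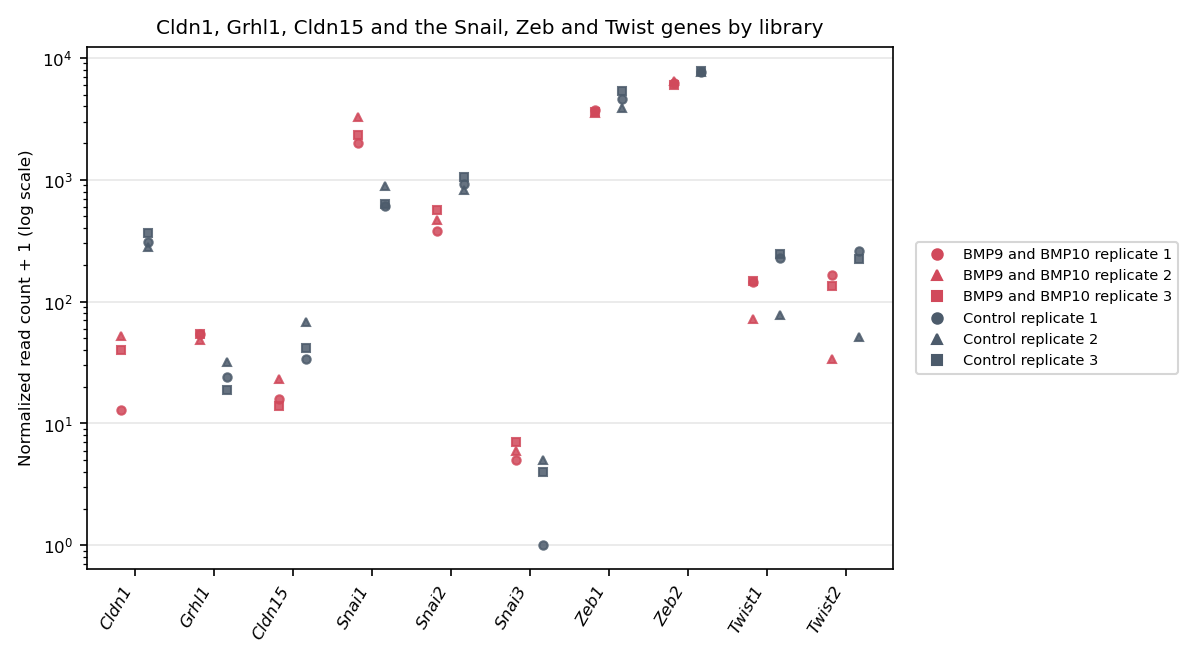
Normalized read count plus 1 (log scale) by library for Cldn1, for the other epithelial and mesothelial genes that passed the test (Grhl1 and Cldn15) and for the Snail, Zeb and Twist genes, with stimulated libraries in red on the left and control libraries in grey on the right. Snai1 lies between 2002 and 3266 in stimulated libraries and between 611 and 881 in control libraries, the opposite order to Cldn1. Snai2 and Zeb2 are lower in every stimulated library, the same order as Cldn1. A link between these genes was not tested.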

How the data were processed

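RNA was measured in 3 stimulated and 3 control samples. Reads were handled with STAR 2.6.1d, featureCounts 1.6.3, Trimmomatic 0.38, DESeq2 1.18.1 and FastQC, and mm10, hg38 and GRCh38 were listed as builds, per the submitters' processing notes; nothing used here states their roles, the strand setting or the annotation. The deposited values are scores: read counts scaled by the authors with 1 factor per library and rounded, as skipped whole numbers in 4 libraries show, so count models were not used. Every row reaches at least 3 in some library. Of 21785 gene rows, 21747 matched GENCODE M21.

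The test was limma 3.58.1 (R 4.3.3) with a mean-variance trend and pseudocount 1, over the 21743 rows with a mean of at least 1 (42 were left out), with treatment as its term and 4 residual degrees of freedom. Without the block, it was tried on simulated data in which libraries varied independently. Deviations shared by same-numbered libraries and the blocked fit were not simulated. The blocked fit also estimates terms for the replicates, which leaves it fewer residual degrees of freedom. Libraries with the same number were compared by their deviations from group means over 13185 genes averaging 50 or more; r was 0.747 (replicate 1), 0.741 (replicate 2) and 0.218 (replicate 3), each above 0.1, which was taken to pair the samples, although control replicate 3 correlated more with stimulated replicate 1 (0.287). What a number marks is not stated in the labels. Intervals for counting error are not given, since the reads were not recovered. Tried besides were the block, libraries left out, limma-voom, and other pseudocounts, scalings and filters. The fits with libraries left out had no block. The members and lists were chosen with earlier results of these data known. Every member is named. Of each further list, up to 3 genes with the smallest p among those that passed, or else the 1 with the highest mean, are named. Acta2, Lyz2 and Col1a1 are named besides, as the genes that made up most of a marker sum. Promoter windows are RefSeq's (GRCm38.p6).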

Additional observations from a re-analysis of the deposited data

How the results depend on the processing

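The single call among the 32 members, Cldn1, was kept under each alternative. The replicate block gave 5837 called genes, 7 called members and 19 called genes of the further lists, against 2905, 1 and 5 without it. The block with equal library totals gave 6958, 13 and 22. That is 40.6% of the members, against 32% of all genes, and 12 of the 13 were lower after stimulation (37.5%, against 22.6%); equal totals moved the median change of all genes from -0.03 to -0.20 (-0.11 with upper-quartile factors). Leaving out single libraries gave 917 to 2384 called genes, 1 to 2 members and 1 to 5 further genes; the count of all genes was 917 without stimulated replicate 3, 1164 without control replicate 1 and 1163 without control replicate 3, and the 2 members without stimulated replicate 1 were Cldn1 and Abca3. Of changes that had not passed, Lrrn4 turned to -0.04 with equal totals, with and without the block, Krt5 to 0.01 with a pseudocount of 5, and Krt5 to 2.06 and Krt14 to 0.21 without both replicate 2 libraries. Over the fits that leave out a library, sign changed for Sftpc (-0.33 to 2.20), Lamp3 (-0.09 to 2.26), Napsa (-0.30 to 0.97), Slc34a2 (-0.38 to 0.86), Ager (-0.53 to 0.93), Sftpd (-0.73 to 0.62), Krt5 (-1.94 to 1.21), Krt14 (-2.42 to 0.42), Epcam (-1.32 to 0.41), Cdh1 (-1.05 to 0.10), Krt7 (-1.54 to 0.06), Muc1 (-0.83 to 0.19), Esrp1 (-1.01 to 0.06), Lrrn4 (-1.07 to 1.38), Bnc1 (-1.84 to 0.27) and Pdpn (-0.40 to 0.01). The fits with a library left out had no block, so their groups held unlike sets of replicate numbers. Sign changed for 0 members without stimulated replicate 3 and for up to 9 (without stimulated replicate 1). Leaving out both replicate 2 libraries keeps the numbers matched, and there it changed for 2 members, Krt5 and Krt14. The cause of the sign changes was not tested.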
